A study of Homo sapiens with 44 samples.

Results

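Long culture was examined by comparing 3 wells at day 90 with 3 wells at day 30 of a cardiovascular differentiation of H1 cells. H1 is a widely used line of human embryonic stem cells. These 6 libraries were chosen by the day and replicate number in their labels, from 44 libraries in all. Every well was coated with the laminins LN-521 and LN-221, basement-membrane proteins to which cells attach. All had received CHIR99021 at day 0 and IWP2 at day 3, which first activate and then block Wnt signalling. From day 11 to day 90 the labels give the same medium, RPMI 1640 with the supplement CTS B-27, so the groups differed by 60 days of culture and by no labelled treatment. Day 30 is represented by wells 1, 3 and 10 and day 90 by wells 2, 4 and 5, and values are given in that order below. The labels name no sorting step and 1 cell line, so the p values describe the spread between wells of mixed cells, which may in part be technical. For the gene tests this spread was estimated from all 17 wells of days 11 to 90, not from these 6 libraries alone.

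Cardiomyocytes derived from stem cells start with a fetal pattern of genes. In the heart, maturation replaces fetal by adult isoforms of contractile proteins, expands the sarcoplasmic reticulum that stores calcium, and turns energy supply from glucose towards fatty acids burnt in mitochondria. Such cultures also hold other cells of the cardiac mesoderm, among them endothelial cells, fibroblasts and epicardial cells, whose transcripts are read together with those of myocytes. In these bulk libraries, fewer cells of a type and less RNA per cell cannot be told apart.

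Promoters of 4 genes to which the results return are shown here, each with a short motif that it carries. The windows reach from 250 bases before to 50 bases after the RefSeq start site (GRCh38.p14), read 5′ to 3′ on the strand of the gene, with the motif in capitals. ALAS2, the heme synthesis enzyme of red cell precursors (chrX:55030928-55031227, minus strand), holds 1 match to AGATAA, the letters bound by GATA factors, printed as its reverse complement:
ALAS2: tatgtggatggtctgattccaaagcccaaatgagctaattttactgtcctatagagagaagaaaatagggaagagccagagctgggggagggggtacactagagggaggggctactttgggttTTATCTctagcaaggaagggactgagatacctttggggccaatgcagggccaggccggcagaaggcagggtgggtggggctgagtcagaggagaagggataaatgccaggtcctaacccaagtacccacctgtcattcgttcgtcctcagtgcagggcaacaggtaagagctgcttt
TNNI3, cardiac troponin I (chr19:55157683-55157982, minus strand), holds 2 such matches, the nearer starting at position -7 from the start site:
TNNI3: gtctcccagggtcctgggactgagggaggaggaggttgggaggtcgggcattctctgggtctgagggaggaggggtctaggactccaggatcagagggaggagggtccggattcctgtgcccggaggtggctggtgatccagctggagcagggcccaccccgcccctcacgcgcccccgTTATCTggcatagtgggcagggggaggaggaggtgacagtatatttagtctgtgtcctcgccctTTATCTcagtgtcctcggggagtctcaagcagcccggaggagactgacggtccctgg
CHAC1, an enzyme that degrades glutathione and a target of the stress factor ATF4 (chr15:40953221-40953520, plus strand), holds 1 match to TGATGNAA, the letters of the CEBP-ATF response element, again as the reverse complement:
CHAC1: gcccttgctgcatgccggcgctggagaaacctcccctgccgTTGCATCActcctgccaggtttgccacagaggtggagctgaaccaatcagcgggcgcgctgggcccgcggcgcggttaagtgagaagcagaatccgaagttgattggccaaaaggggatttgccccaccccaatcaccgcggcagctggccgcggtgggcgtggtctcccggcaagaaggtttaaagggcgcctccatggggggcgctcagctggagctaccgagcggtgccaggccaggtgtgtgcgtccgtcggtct
INSIG1, which holds the sterol sensor SCAP in the endoplasmic reticulum (chr7:155297628-155297927, plus strand), holds 1 match to CCAAT, the box bound by NF-Y, as the reverse complement:
INSIG1: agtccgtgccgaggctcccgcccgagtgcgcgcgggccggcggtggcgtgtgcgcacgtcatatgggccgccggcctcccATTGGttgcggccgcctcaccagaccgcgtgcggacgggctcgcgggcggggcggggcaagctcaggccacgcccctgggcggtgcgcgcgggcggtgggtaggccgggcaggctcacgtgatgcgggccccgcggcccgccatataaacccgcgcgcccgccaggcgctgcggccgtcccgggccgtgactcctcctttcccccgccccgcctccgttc
Searched on both strands, AGATAA was found in 10.3%, TGATGNAA in 3.62% and CCAAT in 34.6% of 35116 RefSeq promoters of the same length. By list, AGATAA was in 2 of 13 promoters of heme synthesis and globin genes and in 3 of 6 of adult ventricular sarcomere genes. It is not particular to these lists. Among others, 8 of 19 promoters of Z-disc, M-band and titin cap genes held it, 5 of 13 of liver and endoderm markers, and 0 of 4 of fetal sarcomere genes. A match is a description of the letters and not a measured binding site.

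The 6 libraries held between 11715812 estimated counts (day 30 well 10) and 27411186 (day 30 well 1), and RNA integrity numbers ranged from 7.4 to 10 at day 30 and from 8 to 9.5 at day 90. Some wells stood apart. Over 15477 genes, day 90 wells 2 and 5 had a Spearman's rho of 0.982 with each other but of 0.916 and 0.934 with well 4, and day 30 well 3 had no rho above 0.929 with any of the other 5 wells. The counts of wells 2 and 5 still differed far beyond sampling noise, with a chi-square of 31.8 per degree of freedom. Day 30 wells came from sequencing lanes 2, 3 and 4, and day 90 wells from lanes 5, 4 and 5, so lane and day are largely confounded, and only day 30 well 10 and day 90 well 4 shared a lane. The contractile genes that define cardiomyocytes were abundant in every well: the 9 genes of the adult ventricular sarcomere list summed to between 17800 and 25190 CPM (counts scaled to library size) at day 30 and between 22060 and 58730 CPM at day 90. Pluripotency genes were low, with POU5F1 at 5.06 CPM at most.

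Genes called higher at day 90 included ELN, ALAS2, CASQ2, ABCC9, CD36 and INSIG1, and genes called lower included PECAM1, CDH5, FN1, MYH4 and IGF2BP1. Calls required both a Benjamini-Hochberg adjusted p under 0.05, from edgeR's quasi-likelihood test, and a log2 change of 1 or more in size. Of 21453 genes tested, 94 (0.438%) were called higher and 55 (0.256%) lower at day 90. The ranges of the 3 wells did not overlap for 89 of the 94 and for 55 of the 55. The calls were made from these same wells, so this is a description and no separate check. Among all genes tested, 9.12% lay higher and 5.43% lower without overlap, and 3.89% and 2.65% did so with mean levels at least 2-fold apart. An unadjusted p under 0.05 was reached by 7.11% of genes higher and 5.05% lower, and DESeq2 called 1.49% higher and 1.1% lower.

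The earlier days of the same medium give these genes a setting in time, as a description only, since the calls were made from the same day 30 wells and the same fit. All 3 day 90 wells lay above all 14 wells of days 11 to 30 for 82 of the 94 genes called higher (4.98% of all genes tested), and below all 14 for 52 of the 55 called lower (2.33% of all genes). Between days 20 and 30 the mean was higher for 62 of the 94 and for 10264 of all 21453 genes, and lower for 32 of the 55 and for 11187 of all genes, so the share of the genes called lower is close to that of all genes.

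How many genes passed depended strongly on the fit, as the plot of calls by fit shows. With the 6 libraries alone edgeR called 0 genes, although 1749 had an unadjusted p under 0.05. With lane as a factor it also called 0, with 1343 at an unadjusted p under 0.05, and none of the 149 calls changed direction. Without day 30 wells 1, 3 or 10 the calls were 21, 26 and 86 higher and 35, 30 and 80 lower, and without day 90 wells 2, 4 or 5 they were 56, 132 and 35 higher and 23, 33 and 17 lower. In all 6 of these fits 26 genes kept their call, 14 of them higher. Those higher included ELN, ALAS2, NDUFA4L2, the lysosomal ceramidase ASAH1 and the glycerol phosphate enzyme GPD1L, and those lower included MYH4, MMP9, CDH5, CD93, ADGRL4, the stem cell factor receptor KIT and XRCC4. ASAH1, GPD1L, KIT, MYH4, CD93 and ADGRL4 were chosen after their values were seen.
Of the 46 called genes named here, 12 kept their call in all 6 of these fits. C3 lost it without day 30 well 1, HAPLN1 without day 90 well 5, ABCC9 and KRT4 without day 30 wells 1 or 3, ALDOC without day 30 well 3 or day 90 well 5, and ESM1 without day 30 well 3 or day 90 well 2. PECAM1 lost it without day 90 wells 2 or 5, STMN2 without day 90 wells 2 or 4, and MYH2 without day 90 wells 4 or 5. TNNI3K kept it without day 30 well 10 or day 90 wells 2 or 4, C14orf180 without day 30 well 10 or day 90 wells 2 or 5, and APLNR without day 30 wells 3 or 10 or day 90 well 2. ESAM, FN1 and LRRC4 kept it without day 30 wells 1 or 10, ASB11 without day 30 well 10 or day 90 well 2, and CASQ2, GPNMB, INSIG1, KRT13 and SALL1 without day 30 well 10 or day 90 well 4. Only without day 30 well 10 was the call kept by CD36, IGF2BP1, PLPP7 and TNC, only without day 30 well 3 by B2M and NNAT, and only without day 90 well 4 by FABP7, HEY1, KRT15, OGN and TP63. PTGDS and SALL3 were called in none of the 6 fits.

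**Figure D1:**
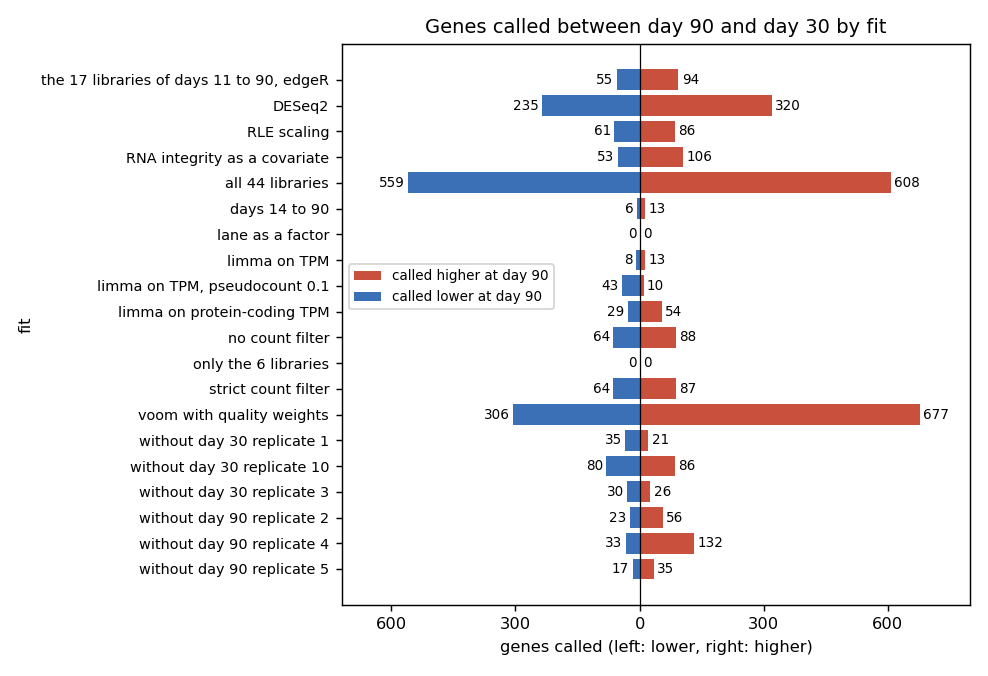
Number of genes called higher (right, red) and lower (left, blue) at day 90 than at day 30, on the x axis, for each fit on the y axis. The fit of 17 libraries called 94 and 55 genes, the fits of 6 libraries and with lane as a factor called 0, and all 44 libraries gave 608 and 559.

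The scale matters for small changes. On the deposited TPM the median log2 change over all genes tested was -0.40, against -0.01 on TMM-scaled counts. The TPM value is from limma with a pseudocount of 1, and it was -0.71 with a pseudocount of 0.1. The contrast with edgeR on counts therefore holds the model and the pseudocount as well as the scale. RN7SL1 and RN7SL2, the RNA of the signal recognition particle, held between 33.6% and 47.6% of TPM at day 30 and between 41.2% and 54.6% at day 90. All 28 of the 42 gene lists whose median was above 0 on counts were below 0 on TPM, 14 of them were below 0 on TPM rescaled to protein-coding genes, and 0 with RLE scaling of the counts. The 14 lists with a median below 0 were below 0 on each of these scales. Each scale also lowered the median of all genes, to -0.06 with RLE, -0.18 on protein-coding TPM and -0.40 on TPM. A list below 0 was thus unlikely to change sign, so this is no separate check. Of the calls, 63.1% were higher on counts, 61.9% on TPM with a pseudocount of 1 and 18.9% with a pseudocount of 0.1. Medians above 0 are therefore given with their TPM value.

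ELN, the gene of elastin and thus of the elastic fibre core, was among the largest rises chosen by rule. It lies on chromosome 7 from 74027789 to 74069907 (ENSG00000049540). ELN measured 1.52, 2.49 and 3.29 CPM at day 30 and 192, 9.86 and 202 CPM at day 90. Wells 2 and 5 were alike and well 4 was far lower, yet no day 90 well overlapped day 30. The log2 change was 5.81 ± 0.88 (SE, adjusted p 0.0072), and 6.38 without day 90 well 4. Earlier means were near that of day 30, with values of 2.10, 2.73 and 1.35 CPM at days 11, 14 and 20.

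ALAS2 was high in all 3 day 90 wells. This gene encodes the erythroid form of the first enzyme of heme synthesis and lies on the X chromosome from 55009055 to 55031064 (ENSG00000158578), where it overlaps APEX2. Its level was 2.54, 0.446 and 2.33 CPM at day 30 and 58.1, 38.1 and 86.7 CPM at day 90. The groups lay far apart, and the log2 change was 5.11 ± 0.58 (SE, adjusted p 0.003). Of the 22 tested members of the heme list ALAS2 was the only one called, and the list median was 0.17, or -0.45 on TPM. ALAS1, the housekeeping form of the enzyme, measured 52.7, 98.8 and 51.9 CPM at day 30 and 48.3, 52.5 and 57.5 CPM at day 90. The globin gene HBA1 stayed at or under 0.0758 CPM in all 6 wells, below the floor of 3 counts.

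CHAC1 was not called, and its difference rested on 1 well. Levels were 10.5, 122 and 3.94 CPM at day 30 and 4.26, 4.62 and 2.67 CPM at day 90, so the groups overlapped. The log2 change was -3.56 ± 0.90 (SE, adjusted p 0.084), and -0.91 without day 30 well 3. CHAC1 lies on chromosome 15 from 40952962 to 40956519 (ENSG00000128965).

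**Figure D2:**
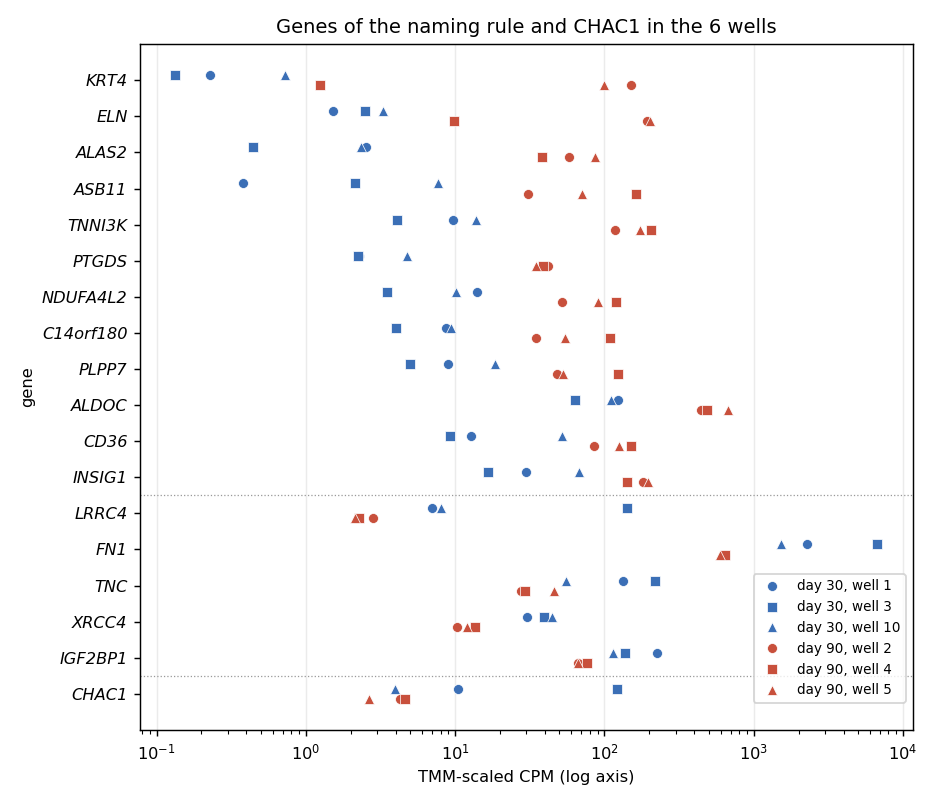
TMM-scaled CPM on a log axis (x) for the 12 rises and 5 falls chosen by rule and for CHAC1 (y), with day 30 wells in blue and day 90 wells in red. For ELN and KRT4, day 90 well 4 lies far below wells 2 and 5, and for LRRC4, FN1 and CHAC1, day 30 well 3 lies far above wells 1 and 10.

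Among the other rises chosen by rule, several were high in all 3 day 90 wells. TNNI3K, a kinase of heart muscle that binds troponin I, measured 9.67, 4.10 and 13.9 CPM at day 30 and 118, 204 and 173 CPM at day 90 (log2 change 4.17, adjusted p 0.019). The read-through gene FPGT-TNNI3K covers it, so reads could be split between them. NDUFA4L2, a relative of a cytochrome oxidase subunit known from cells in low oxygen, rose from 14.0, 3.48 and 10.1 CPM to 52.0, 119 and 90.2 CPM (log2 change 3.24, adjusted p 0.0075). PTGDS, a prostaglandin D synthase, rose from 2.28, 2.23 and 4.74 CPM to 42.1, 38.7 and 35.1 CPM (log2 change 3.66, adjusted p 0.046).
Well 4 was the highest of day 90 for TNNI3K and NDUFA4L2, and also for the next 3 genes. ASB11, a substrate adaptor of ubiquitin ligases, measured 0.379, 2.14 and 7.71 CPM and then 30.6, 164 and 71.3 CPM (log2 change 4.75, adjusted p 0.029). PLPP7, a phosphatase relative, and C14orf180 also peaked in well 4, at 124 and 110 CPM, with log2 changes of 2.80 and 3.17 (adjusted p 0.041 and 0.021). In none of these 6 genes did the groups overlap.

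Among contractile genes the troponin I pair differed in every well, and other isoform pairs overlapped. TNNI3 replaces the slow skeletal form TNNI1 as the heart matures. Its level was 92.4, 32.7 and 72.6 CPM at day 30 and 374, 267 and 467 CPM at day 90, and that of TNNI1 was 1889, 1186 and 1266 CPM and then 1881, 2874 and 2435 CPM. The log2 ratio of TNNI3 to TNNI1, on TPM, was -3.49, -4.32 and -3.61 at day 30 and -1.50, -2.53 and -1.54 at day 90. Every day 90 well was above every day 30 well, by 1.95 in the mean, and TNNI1 remained the more abundant form. The exact two-sided permutation p was 0.1, the smallest that 3 against 3 wells allow, and 0.5 after adjustment over 5 tests. TNNI3 by itself had a log2 change of 2.49 ± 0.79 (SE, adjusted p 0.19) and was not called.

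In the other ratios single wells stood out. MYH7 is the slow, adult ventricular myosin heavy chain and MYH6 the faster form. Their log2 ratio was 2.48, 1.81 and -0.29 at day 30 and 1.25, 5.25 and 2.02 at day 90, a difference in means of 1.5 (exact permutation p 0.5). Well 4 alone held 36150 CPM of MYH7, against 4305 and 8525 CPM in the other day 90 wells, and without it the log2 change of MYH7 turned from 1.19 to -0.14. MYL2, the ventricular regulatory light chain, measured 247, 31.9 and 23.3 CPM at day 30 and 222, 256 and 338 CPM at day 90, so that well 1 of day 30 was already at the later level. The log2 ratio of MYL2 to the atrial form MYL7 differed by 0.80 (exact permutation p 0.8), and ACTA1, skeletal actin, against ACTC1, cardiac actin, by -2.94 (exact permutation p 0.3). MYL7 by itself measured 3960, 882 and 3727 CPM and then 5786, 7417 and 5979 CPM, higher without overlap (log2 change 1.16, adjusted p 0.48). ACTA1 was at 1238 CPM in day 30 well 1 and at 324 and 52.5 CPM in the others, against 62.9, 26.9 and 56.2 CPM at day 90.

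**Figure D3:**
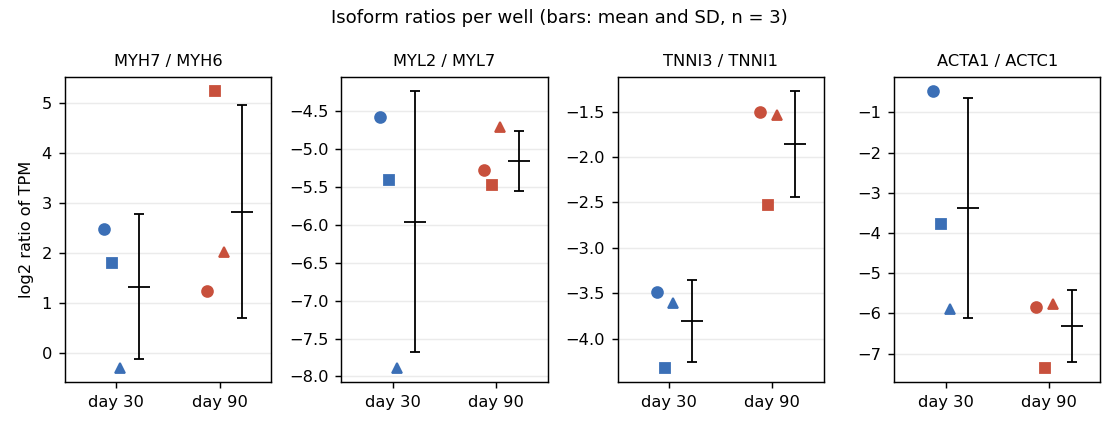
Log2 ratio of TPM (y) for 4 pairs of contractile isoforms in the wells of day 30 (blue) and day 90 (red), with circle, square and triangle for wells 1, 3 and 10 or 2, 4 and 5, and bars for mean and SD (n = 3). The TNNI3 to TNNI1 panel is the only one without overlap, from -4.32 to -3.49 at day 30 and from -2.53 to -1.50 at day 90.

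By list, 0 of 9 adult ventricular sarcomere genes and 0 of 8 fetal isoform genes were called. An unadjusted p under 0.05 was reached by 3 and 0 of them, all higher, against 7.11% of all genes tested. All 9 adult genes had a log2 change above 0, with a median of 0.67 on counts and -0.17 on TPM. Of the fetal genes 5 were above 0 and 3 below, with a median of 0.44 on counts and below 0 on TPM. Fetal isoforms summed to 10370, 4895 and 10860 CPM at day 30 and to 12220, 13550 and 13170 CPM at day 90, without overlap. The sums of the adult genes overlapped. The 24 genes of the Z-disc, M-band and titin cap had 0 calls and a median of 0.24 on counts and -0.62 on TPM. Within that list FHL2, a LIM protein of the sarcomere, measured 242, 548 and 307 CPM and then 680, 3043 and 1270 CPM, and LMOD3, an actin nucleator, 1.29, 5.17 and 8.35 CPM and then 16.9, 45.4 and 30.2 CPM. Both were without overlap and neither was called (log2 change 2.19 and 2.66, adjusted p 0.27 and 0.30). DES, the muscle intermediate filament desmin, measured 68.2, 34.7 and 70.8 CPM and then 330, 247 and 303 CPM, also without overlap (log2 change 2.34, adjusted p 0.15).

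In calcium handling the call was CASQ2, cardiac calsequestrin, the calcium-binding protein inside the sarcoplasmic reticulum. It measured 0.986, 0.267 and 2.57 CPM at day 30 and 36.1, 6.00 and 17.9 CPM at day 90. The groups did not overlap, and CASQ2 had stayed between 0.967 and 1.69 CPM in the means of days 11 to 20. Its log2 change was 4.02 ± 0.78 (SE, adjusted p 0.028). It was the 1 called gene of 16 in the list. S100A1, which tunes the calcium pump and the release channel, measured 0.190, 0.312 and 2.49 CPM and then 5.74, 6.14 and 7.35 CPM (log2 change 2.75, adjusted p 0.11). SLC8A1, the sodium-calcium exchanger, measured 1611, 1272 and 1852 CPM and then 2994, 6572 and 4033 CPM (log2 change 1.52, adjusted p 0.20), and PLN, phospholamban, 799, 764 and 2064 CPM and then 2113, 2486 and 2400 CPM (log2 change 0.95, adjusted p 0.34).
For both SLC8A1 and PLN the day 90 wells lay above those of day 30, without passing the test. The release channel RYR2 and the pump ATP2A2 were highest in well 4. SLC8A1 and PLN were also highest there among the day 90 wells, whereas CASQ2 was lowest. RYR2 measured 452, 2372 and 595 CPM at day 90 against 868, 737 and 505 CPM at day 30, and ATP2A2 939, 3035 and 1019 CPM against 1047, 843 and 819 CPM. All 16 genes of the list had a log2 change above 0 on counts (median 0.67), but the median was -0.43 on TPM and 0.14 without day 90 well 4.

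Of 20 ion channel genes 1 was called. ABCC9, the sulfonylurea receptor of the ATP-sensitive potassium channel, measured 2.20, 4.10 and 6.67 CPM at day 30 and 21.0, 121 and 27.6 CPM at day 90 (log2 change 3.72 ± 0.65, SE, adjusted p 0.014). Well 4 was again the highest, and without it the log2 change was 2.53. KCNQ1, the channel of the slow delayed rectifier current, measured 22.6, 31.6 and 27.6 CPM and then 44.7, 113 and 49.0 CPM, and KCNJ5, a subunit of the acetylcholine-gated channel, 41.8, 42.8 and 36.4 CPM and then 55.4, 172 and 59.5 CPM. Neither passed (adjusted p 0.22 and 0.35), and the median of the list was 0.70 on counts and -0.18 on TPM. Among 8 adrenergic and muscarinic receptors 0 were called. CHRM2, the cardiac muscarinic receptor, measured 49.7, 14.8 and 74.6 CPM and then 92.2, 174 and 102 CPM, and ADRB1, the main beta receptor of the adult heart, 0.303, 0.356 and 0.964 CPM and then 1.39, 5.59 and 1.19 CPM (adjusted p 0.17 and 0.36).

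Genes of energy supply gave few calls. On counts the log2 change was above 0 for 26 of 37 fatty acid genes and 23 of 27 glycolysis genes. It was above 0 for 46 of 46 nuclear-encoded respiratory chain genes, 5 of 13 mitochondrially encoded genes and 10578 of all 21453 genes. CD36, which carries fatty acids into the cell, rose from 12.8, 9.22 and 51.8 CPM to 85.2, 152 and 126 CPM (log2 change 2.31 ± 0.51, SE, adjusted p 0.048). The call was close to the threshold and was lost with RLE scaling, with the stricter count filter and in 5 of the 6 fits that left out a well. Its means had been 2.20, 3.39 and 7.32 CPM at days 11, 14 and 20, in ascending order. Of the 37 genes of fatty acid uptake and oxidation CD36 was the 1 called. An unadjusted p under 0.05 was reached by 9 higher and 0 lower, against 7.11% and 5.05% of all genes tested. The median was 0.29 on counts and -0.46 on TPM. LPL, which frees fatty acids from lipoproteins, measured 2.5, 3.25 and 4.26 CPM and then 34.2, 30.1 and 49.0 CPM (log2 change 3.51, adjusted p 0.11). FABP3, the fatty acid carrier of heart muscle, measured 292, 232 and 399 CPM and then 580, 724 and 644 CPM (log2 change 1.08, adjusted p 0.20), and PPARD, a nuclear receptor for fatty acids, 14.9, 15.2 and 24.3 CPM and then 28.7, 46.2 and 36.9 CPM (log2 change 1.04, adjusted p 0.067). In these 3 genes each day 90 well was above each day 30 well, although none passed.

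Of 46 nuclear-encoded subunits of the respiratory chain 0 were called, 22 reached an unadjusted p under 0.05 higher and 33 had ranges without overlap. Among all genes 7.11% reached such a p higher and 9.12% had such ranges higher. All 46 had a log2 change above 0 on counts with a median of 0.52, which is below the 2-fold call limit, and the median was 0.22 on TPM rescaled to protein-coding genes but -0.42 on TPM. The heart and muscle forms of cytochrome oxidase subunits were at the upper end. COX6A2 measured 11.8, 8.96 and 22.3 CPM and then 32.4, 77.5 and 38 CPM, and COX7A1 3.11, 3.43 and 3.05 CPM and then 7.81, 10.00 and 14.2 CPM, with log2 changes of 1.79 and 1.73 (adjusted p 0.29 and 0.51). The 13 proteins encoded by mitochondria held 0.947%, 0.535% and 3.72% of counts at day 30 and 0.730%, 1.97% and 1.15% at day 90. The groups overlapped widely, with an exact permutation p of 0.9.

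In glycolysis the call was ALDOC, an aldolase isoform of brain and other tissues, at 123, 64.0 and 111 CPM at day 30 and 444, 486 and 678 CPM at day 90. The groups lay far apart (log2 change 2.43 ± 0.43, SE, adjusted p 0.017). It was the 1 called of 27, and the median of the list was 0.44 on counts and -0.50 on TPM. CKMT2, the mitochondrial creatine kinase of muscle, measured 53.2, 40.5 and 49.5 CPM and then 135, 490 and 186 CPM without overlap (log2 change 2.5, adjusted p 0.067), and 0 of the 8 genes of the creatine kinase system were called.

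Of 29 genes of cholesterol and fatty acid synthesis 2 were called higher and 0 lower, with a median log2 change of 0.76 on counts, 0.50 on protein-coding TPM and -0.13 on TPM. Cells raise these genes through the factor SREBP when membrane cholesterol is low, and INSIG1 is a target of the same factor. INSIG1 rose from 30.0, 16.5 and 67.2 CPM to 181, 141 and 197 CPM (log2 change 2.19 ± 0.45, SE, adjusted p 0.036). The groups did not overlap. Of the list, 13 genes had an unadjusted p under 0.05, all higher, and 13 ranges did not overlap, all higher. Among all genes tested, 0.438% were called higher, 7.11% reached such a p higher and 9.12% lay higher without overlap.
Among the enzymes, CYP51A1, lanosterol demethylase, measured 127, 103 and 142 CPM and then 257, 228 and 277 CPM, and DHCR7, the last enzyme of cholesterol synthesis, 41.9, 37.3 and 40.2 CPM and then 88.0, 81.7 and 74.5 CPM. Both were without overlap and missed the test (log2 change 1.04 and 1.03, adjusted p 0.065 and 0.12). MSMO1, a sterol oxidase, measured 71.6, 39.3 and 123 CPM and then 229, 182 and 218 CPM (adjusted p 0.21). FASN, fatty acid synthase in the same list, measured 186, 170 and 58.6 CPM and then 109, 121 and 99.6 CPM, with overlap. Of the 22 list members with a RefSeq promoter entry, 15 held the CCAAT box, among them INSIG1 as printed above, against 34.6% of all promoters. The box is not particular to this list, since 23 of 27 promoters of DNA replication and mitosis genes held it too.

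Matrix genes moved in opposite directions, and the rises depended on the well. FN1, fibronectin, fell from 2279, 6749 and 1519 CPM to 646, 640 and 598 CPM (log2 change -2.48 ± 0.50, SE, adjusted p 0.033). The 3 day 90 wells were close together, while day 30 well 3 was far above its neighbours, and without it the log2 change was -1.59. TNC, tenascin, fell from 132, 218 and 55.6 CPM to 27.7, 29.4 and 45.8 CPM (log2 change -1.98, adjusted p 0.029), and HAPLN1, which links hyaluronan to proteoglycans, from 26.4, 12.7 and 43.5 CPM to 8.84, 4.76 and 5.87 CPM (log2 change -2.07, adjusted p 0.011). VCAN, versican, a proteoglycan of the embryonic heart, measured 1971, 2238 and 1875 CPM and then 575, 1189 and 902 CPM without overlap (log2 change -1.19, adjusted p 0.17).
MMP9, a gelatinase, fell from 1.36, 23.8 and 4.18 CPM to 0, 0.0690 and 0.0593 CPM. No day 90 library had more than 3 counts, so it was at least 56.4-fold lower, and at least 16.0-fold without day 30 well 3. Over the list of 25 proteoglycans and other matrix proteins 1 gene was called higher and 3 lower, against 0.438% and 0.256% of all genes.

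The gene called higher there was OGN, osteoglycin, at 1.36, 2.09 and 2.17 CPM at day 30 and 102, 2.90 and 85.2 CPM at day 90 (log2 change 5.08 ± 1.05, SE, adjusted p 0.036). As with ELN, wells 2 and 5 were high and well 4 was close to day 30. DCN, decorin, had the same order with 32.4, 45.8 and 25.1 CPM and then 551, 57.8 and 308 CPM, and so had FBLN5, fibulin 5, which guides elastin onto fibres, with 7.58, 8.82 and 7.07 CPM and then 57.5, 4.41 and 36.9 CPM (adjusted p 0.33 and 0.26). GPNMB, a membrane glycoprotein chosen after its values were seen, rose from 0.72, 1.78 and 1.61 CPM to 44.6, 4.96 and 32.5 CPM (log2 change 4.33, adjusted p 0.020). Of 22 elastic fibre genes ELN was the only one called. Among collagens 0 of 21 were called, and COL8A1 and COL16A1 came nearest, with 10.5, 14.6 and 13.5 CPM and then 75.9, 19.3 and 40.4 CPM, and with 89.2, 85.3 and 35.4 CPM and then 327, 208 and 195 CPM (adjusted p 0.059 and 0.069).

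Markers of other cell types differed between the same wells. The 19 fibroblast and epicardial markers summed to 4202, 8033 and 3432 CPM at day 30 and to 16030, 2613 and 8893 CPM at day 90, so well 4 had less than any other well and well 2 the most. WT1, an epicardial factor, measured 10.1, 3.34 and 9.08 CPM and then 35.4, 10.6 and 30.2 CPM, and 0 of the 19 were called. The part of these cells in the rise of ELN and OGN was not tested.
KRT4, a keratin chosen by rule, was high in the same wells, and KRT13, KRT15, TP63 and FABP7 were chosen after their values were seen, from no list. KRT4 measured 0.228, 0.134 and 0.723 CPM at day 30 and 152, 1.24 and 99.4 CPM at day 90, and KRT13, its keratin partner, 0.0758, 0.178 and 0.402 CPM and then 220, 0 and 136 CPM (log2 change 8.01 and 9.24, adjusted p 0.010 and 0.019). Well 4 had no count of KRT13. KRT15 and TP63, the master factor of basal epithelium, were likewise high in wells 2 and 5 only, at 64.1 and 66.8 CPM and at 11.5 and 13.3 CPM, with 4.07 and 0.0690 CPM in well 4. No day 30 library had more than 3 counts of TP63, so it was at least 51.0-fold higher in the day 90 mean. FABP7 showed the same order, with 21.4, 0 and 12 CPM at day 90.

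Junction genes of endothelium fell to a few counts at day 90. PECAM1, the junction protein CD31, fell from 1.78, 19.5 and 2.81 CPM to 0.180, 0.0690 and 0.356 CPM (log2 change -5.27 ± 0.92, SE, adjusted p 0.014), and -3.43 without day 30 well 3. CDH5, VE-cadherin, fell from 3.15, 13.8 and 2.01 CPM to 0.449, 0.0690 and 0.415 CPM (log2 change -4.27, adjusted p 0.011), and ESAM, another junction protein, from 1.71, 7.98 and 0.402 CPM to 0.135, 0 and 0.237 CPM (log2 change -4.66, adjusted p 0.028). Well 3 was the highest of day 30 for all of these, and all 3 day 90 wells were below all day 30 wells.
Of 16 endothelial markers 3 were called lower and 0 higher, against 0.256% and 0.438% of all genes. An unadjusted p under 0.05 was reached by 8 lower and 1 higher, against 5.05% and 7.11% of all genes. The median of the markers was -1.31 on counts and -0.67 on TPM, or -0.57 without day 30 well 3. Their sums overlapped, at 125, 281 and 101 CPM at day 30 and 251, 101 and 97.4 CPM at day 90. Other called genes known from endothelium, named after their values were seen, were also lower. ESM1 fell from 6.29, 11.7 and 2.89 CPM to 0.0449, 0 and 0.237 CPM, and CD93 from 3.64, 17.9 and 3.05 CPM to 0.180, 0 and 0.356 CPM (adjusted p 0.019 and 0.0072). ADGRL4 had no more than 3 counts in any day 90 library and was at least 12.5-fold lower, or 8.09-fold without day 30 well 3. KDR, a receptor for VEGF that mesoderm and myocyte precursors also carry, did not follow them, with 26.8, 69.0 and 15.2 CPM at day 30 and 154, 69.0 and 27.5 CPM at day 90 (log2 change 1.17, adjusted p 0.38). VWF, another marker of the list, was low in all 6 wells and overlapped. It measured 0.228, 0.802 and 0.884 CPM and then 0.359, 0 and 0.178 CPM (log2 change -1.69, adjusted p 0.39). The means of PECAM1 had been 9.56, 6.26 and 2.49 CPM at days 11, 14 and 20, and those of CDH5 20.3, 12.1 and 3.94 CPM, in descending order for both.

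IGF2BP1, an RNA-binding protein of fetal tissues, fell from 227, 137 and 113 CPM to 66.7, 76.9 and 66.4 CPM (log2 change -1.19 ± 0.24, SE, adjusted p 0.036). It was the 1 called of 9 heterochronic RNA-binding and HMGA genes. Of these, 7 reached an unadjusted p under 0.05 lower and 0 higher, against 5.05% and 7.11% of all genes. Their median was -1.10 on counts and -1.40 on TPM, a scale that lowered the median of all genes too. HMGA2, a chromatin protein of growing embryos, measured 147, 57.9 and 159 CPM and then 40.6, 12.4 and 38 CPM, TRIM71 36.1, 16.1 and 26.7 CPM and then 4.67, 17.1 and 5.87 CPM, and LIN28B 18.6, 4.32 and 22.3 CPM and then 4.76, 3.59 and 6.70 CPM (adjusted p 0.053, 0.16 and 0.28). At day 11 their means had been 218, 131 and 96.7 CPM. For IGF2BP3 the wells overlapped, with 79.5, 61.4 and 87.8 CPM and then 74.6, 54.8 and 71.4 CPM.

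Among regulators, HEY1, a Notch target of the heart chambers, fell from 22.7, 18.5 and 23.9 CPM to 4.62, 7.10 and 5.46 CPM (log2 change -1.92, adjusted p 0.033). It was the 1 called of 25 cardiac transcription factors. SALL1, SALL3 and APLNR were chosen after their values were seen. SALL1 and SALL3, embryonic zinc finger factors, fell from 8.53, 7.17 and 6.59 CPM to 0.987, 2.76 and 1.84 CPM and from 3.83, 2.76 and 4.58 CPM to 0.538, 0.345 and 1.19 CPM (adjusted p 0.033 and 0.048). APLNR, the apelin receptor of early mesoderm, fell from 13.9, 7.71 and 3.53 CPM to 1.26, 0.414 and 0.652 CPM (adjusted p 0.018). STMN2, a neuronal tubulin-binding protein, and NNAT, an imprinted gene, were called lower too, at means of 15.5 against 2.5 CPM and of 8.57 against 2.46 CPM.
Of 7 tested skeletal muscle markers MYH2 was the 1 called, lower. An unadjusted p under 0.05 was reached by 1 higher and 3 lower, against 7.11% and 5.05% of all genes. Without overlap, 2 were higher and 1 lower, against 9.12% and 5.43% of all genes. The sums of the markers overlapped, at 1593, 549 and 432 CPM and then 702, 990 and 681 CPM. MYH4, a skeletal myosin outside the list, measured 10.7, 15.2 and 24.5 CPM at day 30 and 0, 0.0690 and 0.119 CPM at day 90 and was at least 97.2-fold lower, since no day 90 library exceeded 3 counts. Its means at days 11, 14 and 20 were 0.987, 5.58 and 25.8 CPM. MYH2 fell from 2.54, 2.23 and 5.46 CPM to 0.538, 0.0690 and 0.0593 CPM (log2 change -3.79, adjusted p 0.023). Skeletal myosin genes are close copies, so reads may have been shared between them.

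**Figure D4:**
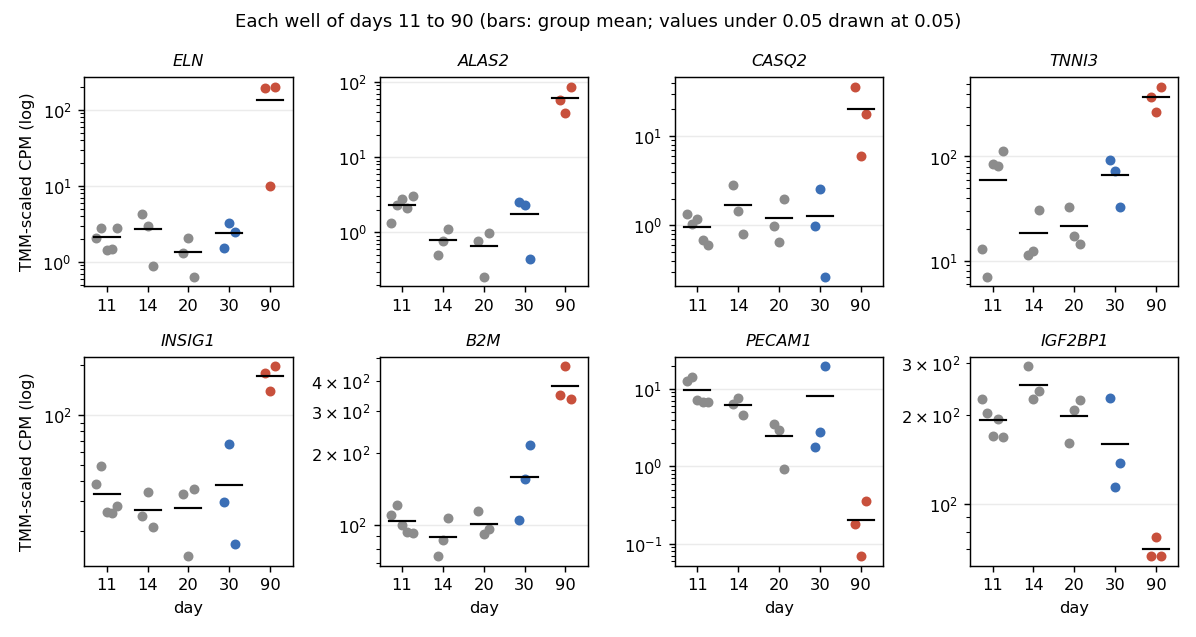
TMM-scaled CPM (y, log axis) of 8 genes in every well of days 11, 14, 20, 30 and 90 (x), with group means as bars and values under 0.05 drawn at 0.05. The upper row and B2M and INSIG1 lie highest at day 90, whereas PECAM1 has a mean of 9.56 at day 11 and 0.201 at day 90 and IGF2BP1 of 192 and 70.0.

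LRRC4 and XRCC4 complete the falls chosen by rule. LRRC4, a synaptic adhesion protein whose gene lies within SND1, measured 7.01, 141 and 8.03 CPM at day 30 and 2.83, 2.28 and 2.13 CPM at day 90 (log2 change -4.42, adjusted p 0.047), and -1.62 without day 30 well 3. XRCC4, a ligase partner in the repair of DNA breaks, measured 30.3, 39.4 and 44.4 CPM and then 10.2, 13.7 and 12 CPM (log2 change -1.67, adjusted p 0.0072). The means of days 11, 14 and 20 were 13.1, 14.0 and 13.6 CPM, nearer to day 90 than to day 30.

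Stress genes were highest in day 30 well 3. The 38 genes of ATF4 and amino acid stress summed to 2331, 4703 and 1580 CPM at day 30 and to 2317, 2181 and 2009 CPM at day 90. Of the 37 tested 0 were called. An unadjusted p under 0.05 was reached by 8 lower and 2 higher, against 5.05% and 7.11% of all genes. The median of -0.23 turned to 0.15 without well 3. ATF4 itself measured 239, 764 and 141 CPM and then 191, 261 and 157 CPM, ATF3 15.5, 248 and 36.3 CPM and then 11.9, 14.3 and 16.0 CPM, and SLC7A5, an amino acid carrier, 75.4, 210 and 32.7 CPM and then 32.9, 23.7 and 22.7 CPM (adjusted p 0.46, 0.22 and 0.069). In each, well 3 was far above the other 5 wells. NUPR1, a further stress gene, measured 2.35, 1.78 and 2.73 CPM and then 32.8, 4.9 and 16.5 CPM (adjusted p 0.17). In the RefSeq promoters 6 of 27 members of the list held the element printed for CHAC1, against 3.62% of all promoters. The list was written around ATF4, so this share describes the list and not a difference between the days.
Immediate early genes, which respond fast to stimuli, had the same well at the top. Their sum was 484, 2665 and 442 CPM at day 30 and 436, 772 and 446 CPM at day 90. Of 22 genes 0 were called. An unadjusted p under 0.05 was reached by 6 lower and 0 higher, against 5.05% and 7.11% of all genes. The median of -1.19 became 0.38 without well 3. JUN measured 153, 698 and 118 CPM and then 74.8, 141 and 90.5 CPM, and EGR1 10.4, 20.4 and 6.02 CPM and then 3.05, 6.28 and 3.44 CPM.

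Antigen presentation was represented by 1 call. B2M, the light chain of MHC class I, rose from 105, 217 and 157 CPM to 349, 461 and 337 CPM (log2 change 1.26 ± 0.25, SE, adjusted p 0.029). TAP1, the peptide carrier, measured 3.79, 12.2 and 3.29 CPM and then 15.1, 44.6 and 14.6 CPM, and PSMB8, a subunit of the immunoproteasome, 1.06, 4.19 and 0.402 CPM and then 12.8, 8.62 and 9.49 CPM, both without overlap (adjusted p 0.15 and 0.20). Of 22 interferon and MHC class I genes B2M was the 1 called. An unadjusted p under 0.05 was reached by 6 higher and 0 lower, against 7.11% and 5.05% of all genes. The median was 0.76 on counts and -0.06 on TPM. The complement gene C3, named after its value was seen, rose from 2.73, 10.4 and 1.69 CPM to 189, 61.5 and 40.3 CPM (log2 change 4.27, adjusted p 0.013).

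Proliferation genes gave no calls. Of 34 genes of DNA replication and mitosis 0 were called. An unadjusted p under 0.05 was reached by 1 higher and 0 lower, against 7.11% and 5.05% of all genes. The sums were 1329, 888 and 1519 CPM at day 30 and 1927, 1257 and 1734 CPM at day 90. The wells overlapped. Among D cyclins and inhibitors of cyclin-dependent kinases 0 of 10 were called, although CCND2 measured 462, 460 and 420 CPM and then 588, 1118 and 632 CPM, and CDKN2D 3.94, 4.19 and 6.02 CPM and then 13, 11.9 and 13.2 CPM, both without overlap (adjusted p 0.13 and 0.15).

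**Figure D5:**
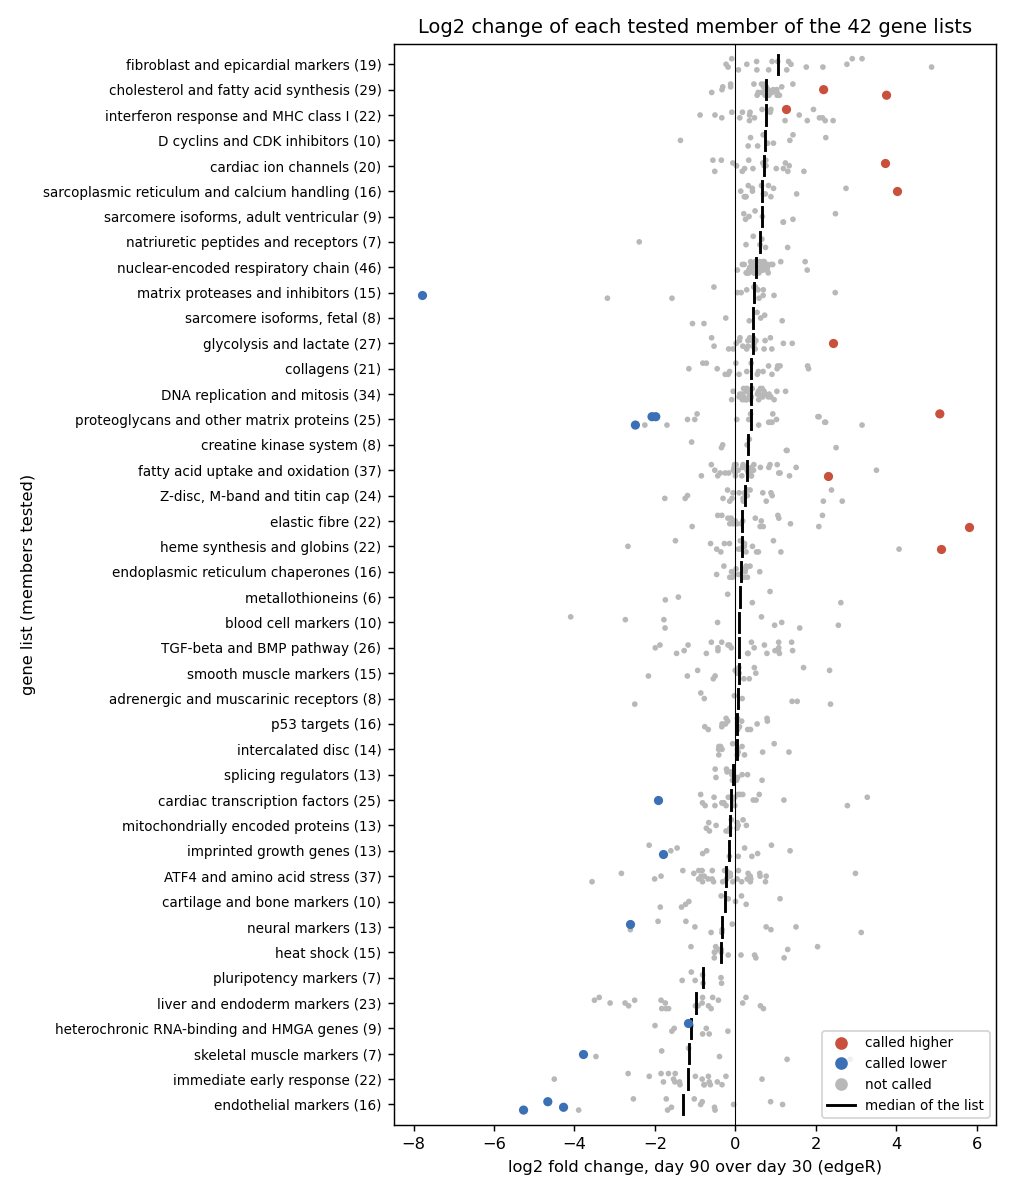
Log2 fold change of day 90 over day 30 on TMM-scaled counts (x) for every tested member of the 42 gene lists (y), with called genes in red or blue and the list median as a black bar. Medians run from -1.31 for endothelial markers to 1.05 for fibroblast and epicardial markers, and the 28 medians above 0 are below 0 on TPM.

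Across all 42 lists, 740 distinct genes were tested, of which 10 were called higher and 12 lower. Of all genes tested, 0.438% were called higher and 0.256% lower, and the lists were written with earlier results of these data known. Cartilage and bone markers had 0 calls of 10, and their sums were 433, 413 and 295 CPM and then 153, 290 and 168 CPM, lower at day 90 without overlap. Smooth muscle markers had 0 calls of 15, and TAGLN, an actin-binding protein of smooth muscle and early myocytes, measured 1305, 1179 and 276 CPM and then 298, 54.4 and 265 CPM (adjusted p 0.12). Liver and endoderm markers had 0 calls of 23 with sums of 516, 1421 and 287 CPM and then 323, 655 and 319 CPM, so day 30 well 3 and day 90 well 4 held the most of their groups. Blood cell markers summed to no more than 9.03 CPM in any of the 6 wells, and PTPRC, which marks leukocytes, to no more than 0.552 CPM.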

How the data were processed

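Total RNA of H1 wells was sequenced as stranded paired-end libraries, 1 well each, per the labels. The deposited gene tables hold estimated counts (93.8% of values whole), and the authors also deposited TPM, which are normalized for length and depth within each library. The deposited sample table gives the sequencing lane and the RNA integrity number, a score of RNA quality. The submitters' processing notes name cutadapt, STAR 2.5.2b, RSEM 1.2.31 and hg38, without the role or order of each, and the annotation and the strand setting of the counting are not given in the sources used here. Of 60499 gene identifiers, 56769 had a name in GENCODE 29.

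Estimated counts were rounded and tested in edgeR 4.0.16 (R 4.3.3) with filterByExpr, TMM scaling and a quasi-likelihood fit over the 17 libraries of days 11, 14, 20, 30 and 90, which share 1 medium, and 21453 genes were tested. Pooling the days gives all of them 1 estimate of the spread. The biological coefficient of variation by day was 37.6% at day 11 (5 wells), 48.4% at day 14 and 54.8% at day 20. It was 57.4% at day 30 and 41.4% at day 90. The pooled spread may thus be too small for day 30, and the adjusted p values too low. Without day 11, which also leaves fewer libraries, 13 genes were called higher and 6 lower. CPM are TMM-scaled. A group with no more than 3 counts in any library was set to that floor (0.114 to 0.241 CPM) for a lower bound of the fold. Ratios of isoforms used TPM with a pseudocount of 0.1. The ratios and the mitochondrial share were tested by exact two-sided permutation, adjusted over 5 tests.

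Named were the 12 protein-coding genes with the largest rise and up to 12 with the largest fall among called genes without overlap whose higher group averaged 10 TPM or more (5 falls qualified), members of 42 gene lists, and ELN, ALAS2 and CHAC1. The comparison, the lists and the genes were chosen with earlier results of these data known. Alternatives used DESeq2 1.42.0, limma 3.58.1 on TPM and voom weights, other scalings, filters and sets of libraries. The fitting code was tested on simulated data. Some genes are not reported here. The other libraries of the series were not analysed here beyond the fit of all 44.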

Additional observations from a re-analysis of the deposited data

How the results depend on the processing

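The number of calls moved with the fit. Against 94 genes higher and 55 lower (10 and 12 among list genes), DESeq2 called 320 and 235 (33 and 28), all 44 libraries 608 and 559 (60 and 39), voom with quality weights 677 and 306 (71 and 29), and days 14 to 90 called 13 and 6 (1 and 1). limma called 13 and 8 (2 and 4) on TPM, 10 and 43 (1 list gene higher) with a pseudocount of 0.1, and 54 and 29 (6 list genes lower) on protein-coding TPM. The fits with lane as a factor and with only the 6 libraries called 0 and 0 (0 and 0). Leaving out 1 well gave 21 to 132 genes higher and 17 to 80 lower, and 3 to 15 list genes higher and 3 to 17 lower. Lane and RNA integrity as terms, and the count of ranges without a minimum fold (1957 higher and 1165 lower, against 834 and 569), and lower bounds of folds without single wells were chosen after seeing the data. Of the 149 calls, 1 changed sign, on TPM, and none in the other fits.

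Some log2 changes of uncalled genes turned. On TPM with a pseudocount of 1 and of 0.1 they were -0.3151 and -0.3156 for TNNI1, -0.1746 and -0.1759 for MYH7, -0.5833 and -0.5837 for ACTC1, -0.5415 and -0.5882 for RYR2, -0.2570 and -0.2616 for ATP2A2, and -0.1889 and -0.1957 for CCND2. With voom weights MYH7 was at -0.004362 and RYR2 at -0.3189. With lane as a factor ACTC1 was at -0.3691 and FASN at 0.1965. Leaving out 1 well at a time, the log2 change ran from -0.1359 to 1.651 for MYH7 and from -0.4058 to 1.082 for RYR2 (both lowest without day 90 replicate 4), from -0.04215 to 0.6012 for ACTC1 (lowest without day 30 replicate 1), and from -1.298 to 0.1039 for ATF4 and from -0.5146 to 0.02526 for ALAS1 (both highest without day 30 replicate 3). The difference in log2 MYL2 to MYL7 ran from -0.1646 to 1.493, and that in percent of counts, mitochondrially encoded proteins, from -1.048 to 0.5435, with the first low and the second high without day 30 replicate 10. The cause was not tested. No paired analysis was possible because the groups share 0 replicate numbers. With 3 wells a group, no exact permutation p can go below 0.1, and lane was largely confounded with day.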
